A study of Mus musculus with 2 samples.

Results

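The genes described here are 36 mouse genes of the synapse: 17 synaptotagmin genes (Syt1 to Syt17), 14 other genes of synaptic vesicles, vesicle fusion and the active zone (Syn1, Syn2, Syn3, Syp, Vamp1, Vamp2, Snap25, Stx1a, Sv2a, Sv2b, Sv2c, Bsn, Pclo and Unc13a) and 5 genes of synaptic adhesion (Nrxn2, Nrxn3, Nlgn1, Nlgn2 and Nlgn3). They were chosen by name and role, with earlier results of these data known. All 36 were found among 21774 protein-coding genes of the mouse annotation. The data were the peaks of a chromatin immunoprecipitation with sequencing (ChIP-seq) for H2AZ, a variant of histone H2A, in neural progenitor cells from the brain of C57BL/6 embryos at embryonic day 13. There was 1 library of H2AZ ChIP and 1 of input DNA, from the same strain, stage, tissue and cell type, with no other treatment or genotype in the labels. The labels name neither a brain region nor the number of embryos. No value could be checked in a replicate, and the depth of the libraries is unknown.

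H2AZ stands in for the ordinary histone H2A in some nucleosomes, and in many cell types it is found at the nucleosomes that flank active or poised transcription starts. Synaptic vesicles carry synaptotagmins, which bind membranes and in several family members sense calcium, and they fuse through SNARE proteins: Vamp on the vesicle, and syntaxin and Snap25 on the plasma membrane. Bassoon, Piccolo and Munc13 organise the active zone where this happens, and neurexins and neuroligins bind each other across the synaptic cleft. Many of these proteins are made mainly by neurons, which neural progenitor cells later give rise to. A peak says where H2AZ was enriched and does not measure whether a gene was transcribed.

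Of the progenitor marker genes Nes, Vim, Hes1, Hes5, Sox2, Pax6 and Fabp7, 6 of 7 had a peak at a gene end, and Sox2 had none. Their scores ran from 6.56 to 21.8 with a median of 11.2, beside a median of 17.08 over all protein-coding genes with an end peak. None of 3 endothelial genes (Cdh5, Cldn5, Emcn) and none of 3 microglial genes (Aif1, C1qa, C1qb) had a peak at an end, though Emcn held 1 inside, with a score of 7.16. Over all protein-coding genes 55.4% had a peak at an end. Each peak has a score given by the authors, from 3.72 to 38.78 over the deposited list with a median of 11.93. Its meaning is not named in the file, so it serves here only to rank peaks of this list. The list holds a part of a longer numbered series of peaks, so a gene without a listed peak may have had one in the longer series.

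The sequences before the starts of 7 of the genes are shown as examples of starts with and without a peak. Each run is the 250 bases before a listed start, 5′ to 3′ on the gene's strand, from RefSeq on GRCm38.p6, with CpG dinucleotides in capitals. Syn2 is shown because its peak had the highest score among the 36 genes. Syt1 is shown as a high-scoring start with few CpG dinucleotides. Without a peak are shown Syt9, rich in CpG, Syp, of middle CpG content (11 in its run), and the outermost Syt8 start, poor in CpG. For Syt2 and Nlgn1 both listed starts are shown, since peaks marked them differently. The Syn2 bases lie at chr6:115134652-115134901 (plus strand), the Syt1 bases at chr10:109010976-109011225 (minus strand), the Syt9 bases at chr7:107370540-107370789 (plus strand) and the Syp bases at chrX:7638330-7638579 (plus strand). The Syt8 bases lie at chr7:142434600-142434849 (plus strand). The Syt2 bases lie at chr1:134646362-134646611 for the outer and chr1:134709050-134709299 for the inner start (plus strand), and the Nlgn1 bases at chr3:26331910-26332159 for the outer and chr3:26153987-26154236 for the inner start (minus strand).
Syn2, peak at the start: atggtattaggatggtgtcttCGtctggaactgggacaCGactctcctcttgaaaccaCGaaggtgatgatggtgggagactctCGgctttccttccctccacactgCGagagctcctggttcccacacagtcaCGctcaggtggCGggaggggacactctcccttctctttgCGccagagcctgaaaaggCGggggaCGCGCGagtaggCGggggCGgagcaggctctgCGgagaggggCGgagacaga
Syt1, peak at the start: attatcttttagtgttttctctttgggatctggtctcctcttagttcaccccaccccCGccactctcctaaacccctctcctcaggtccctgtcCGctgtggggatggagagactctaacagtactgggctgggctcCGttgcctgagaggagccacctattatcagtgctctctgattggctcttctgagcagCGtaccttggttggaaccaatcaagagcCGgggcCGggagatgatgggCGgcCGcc
Syt2 outer start, peak: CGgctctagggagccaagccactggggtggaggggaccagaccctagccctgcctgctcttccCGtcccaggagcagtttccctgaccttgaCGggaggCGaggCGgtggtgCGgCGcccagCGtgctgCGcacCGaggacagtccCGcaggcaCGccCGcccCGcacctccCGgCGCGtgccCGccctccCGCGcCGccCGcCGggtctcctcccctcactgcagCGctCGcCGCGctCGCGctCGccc
Syt2 inner start, peak of higher score: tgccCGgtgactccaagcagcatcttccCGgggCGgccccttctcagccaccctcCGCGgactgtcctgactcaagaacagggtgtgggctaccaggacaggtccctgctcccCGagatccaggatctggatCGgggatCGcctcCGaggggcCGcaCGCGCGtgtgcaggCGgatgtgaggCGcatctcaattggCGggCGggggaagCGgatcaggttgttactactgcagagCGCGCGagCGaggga
Nlgn1 outer start, no peak: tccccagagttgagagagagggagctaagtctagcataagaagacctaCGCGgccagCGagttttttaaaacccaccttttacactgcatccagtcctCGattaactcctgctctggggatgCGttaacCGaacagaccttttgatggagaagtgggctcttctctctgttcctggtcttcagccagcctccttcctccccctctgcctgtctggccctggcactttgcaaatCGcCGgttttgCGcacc
Nlgn1 inner start, peak: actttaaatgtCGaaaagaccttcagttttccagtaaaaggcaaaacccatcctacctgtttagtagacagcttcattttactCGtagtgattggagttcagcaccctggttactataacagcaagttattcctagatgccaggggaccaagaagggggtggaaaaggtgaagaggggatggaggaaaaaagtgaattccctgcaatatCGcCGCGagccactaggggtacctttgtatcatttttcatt
Syt9, no peak: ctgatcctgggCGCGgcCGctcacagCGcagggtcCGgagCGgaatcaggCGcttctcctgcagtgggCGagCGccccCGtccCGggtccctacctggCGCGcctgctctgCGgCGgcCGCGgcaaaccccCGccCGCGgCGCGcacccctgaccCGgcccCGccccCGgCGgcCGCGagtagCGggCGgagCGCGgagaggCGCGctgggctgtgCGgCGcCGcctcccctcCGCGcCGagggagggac
Syp, no peak: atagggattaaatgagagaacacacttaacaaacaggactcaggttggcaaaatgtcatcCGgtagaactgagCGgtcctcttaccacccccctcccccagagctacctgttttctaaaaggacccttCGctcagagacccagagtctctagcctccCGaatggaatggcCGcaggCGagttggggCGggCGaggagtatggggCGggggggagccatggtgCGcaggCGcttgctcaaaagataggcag
Syt8 outermost start, no peak: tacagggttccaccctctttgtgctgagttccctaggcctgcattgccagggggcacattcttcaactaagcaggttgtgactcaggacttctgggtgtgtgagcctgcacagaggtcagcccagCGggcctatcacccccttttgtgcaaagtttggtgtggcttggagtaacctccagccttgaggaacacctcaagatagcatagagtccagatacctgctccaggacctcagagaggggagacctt

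The 250 bases before the Syt9 start hold 40 CpG dinucleotides, the most of the 9 runs, and no peak was listed there. Those before the Syt1 start hold 8, and those before the inner Nlgn1 start hold 5, and both starts had a peak.

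Most of the vesicle genes and 2 of the 5 neurexin and neuroligin genes had a peak at a gene end. A gene was counted when a peak reached within 1 kb of its outermost start or end. This held for 29 of the 36 genes (80.6%, 95% exact interval 64.0 to 91.8%), against 55.4% of all protein-coding genes. Among the synaptotagmins it held for 14 of 17 (82.4%, 56.6 to 96.2%), among the other vesicle, SNARE and active zone genes for 13 of 14 (92.9%, 66.1 to 99.8%), and among the adhesion genes for 2 of 5 (40.0%, 5.27 to 85.3%). Intervals cover counting error only, and genes are not replicates, so the classes are set side by side without a test. The interval of the adhesion class overlaps those of both other classes and includes the 55.4% of all protein-coding genes. In a list of 28 other adhesion genes, given below, 24 had an end peak (85.7%).

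**Figure D1:**
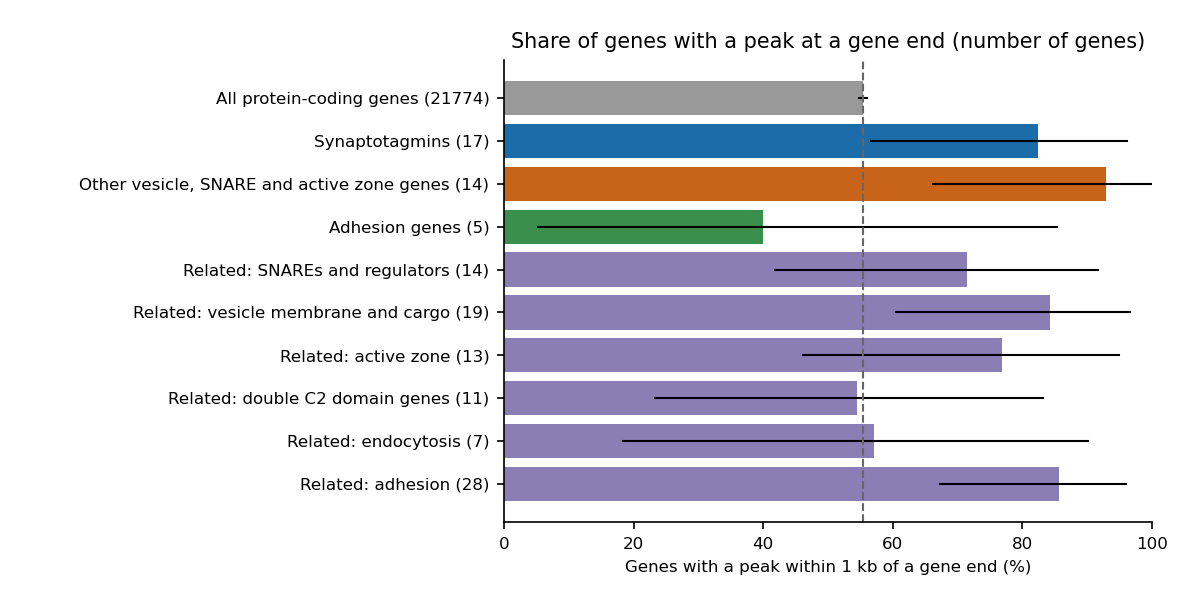
Share of genes with a peak within 1 kb of a gene end (horizontal axis, percent), for all protein-coding genes, the 3 classes of synaptic genes and 6 lists of related genes, with the number of genes in brackets; lines are 95% exact intervals and the dashed line marks the 55.4% of all protein-coding genes. The synaptotagmins (82.4%) and the other vesicle, SNARE and active zone genes (92.9%) lie above that line. The 5 adhesion genes (40.0%) lie below it and the 28 related adhesion genes (85.7%) above it. The list of genes with C2 domains as in synaptotagmins carries the label double C2 domain genes.

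Counting only peaks with a score at or above the list median of 11.93, 21 of the 36 genes (58.3%) had an end peak, against 44.4% of protein-coding genes. These were 10 of the 17 synaptotagmins, 11 of the 14 other vesicle, SNARE and active zone genes and 0 of the 5 adhesion genes. Scores of the vesicle genes had medians near that of gene ends at large, and both adhesion scores lay below the lower quartile of gene ends, 12.9. The highest end peak of the 14 synaptotagmin genes had a median score of 17.93, that of the 13 other vesicle, SNARE and active zone genes 18.79, and that of the 2 adhesion genes 9.925, beside 17.08 over all protein-coding genes with an end peak. For Bsn the highest end peak lay outside the gene, at an end of Apeh. With only peaks at no end of another gene, the 18.79 fell to 17, beside 16.93 over all protein-coding genes. The lowest end-peak score among the 36 genes was 9.25 and the highest 27.05.

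**Figure D2:**
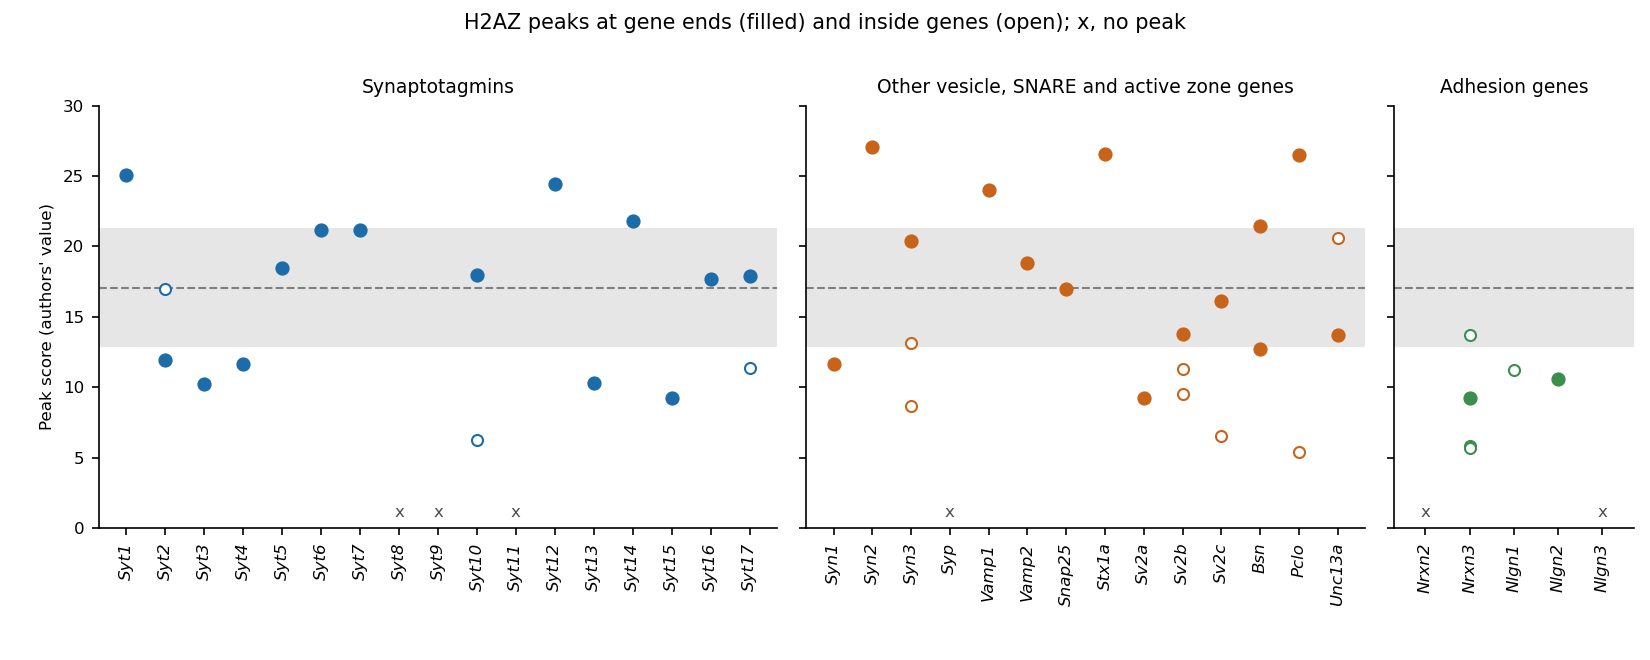
Score of every peak at an end of the gene (filled) or inside it (open) for the 36 genes, in 3 panels by class; an x marks a gene with neither. The dashed line and grey band are the median (17.08) and quartiles of the highest end peak over all protein-coding genes that have one; Syn2, Stx1a and Pclo stand highest and the adhesion genes all lie below the line.

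Among the synaptotagmins the highest end-peak scores ran from 9.25 to 25.1. Over all protein-coding genes with an end peak they ran from 4.18 to 38.78. Syt1, the fast calcium sensor of transmitter release in the forebrain, had the highest, 25.1, in a peak on chromosome 10 from 109009953 to 109012570. That score was above those of 89.9% of protein-coding genes with an end peak. Syt2, the fast sensor of many hindbrain and spinal synapses, had an end peak of 11.93, lower than those of most genes with one. Syt9, the remaining fast sensor, had no peak at either end or inside its 178308 bp, and the nearest peak to one of its ends lay 45171 bp away, at an end of Ppfibp2.

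The other synaptotagmins with calcium-binding C2 domains all had an end peak. Syt7, a slower and more sensitive calcium sensor, had one of 21.2, on chromosome 19 from 10388130 to 10390651. Syt6 also had 21.2, Syt5 18.5, Syt10 17.9 and Syt3 10.2. The peaks of Syt5 and Syt3 were shared with a neighbour. The Syt5 peak was also at an end of Ptprh, and the Syt3 peak at an end of 1700008O03Rik. The Syt3 peak began 909 bp inside the outermost end of the gene, close to the limit of 1 kb, and covered the listed start of Syt3. Together 7 of the 8 synaptotagmins that bind calcium had an end peak, a grouping made after the values were seen.

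Of the 9 synaptotagmins outside this group 7 had an end peak. Syt12 had 24.5 (chromosome 19, 4476115 to 4477715), Syt14 21.8, Syt17 17.9, Syt16 17.7, Syt4 11.6, Syt13 10.3 and Syt15 9.25. Syt12 therefore stood beside Syt1 at the top of the family, and Syt15 had the lowest score of the family in the narrowest end peak of all 36 genes, 857 bp. Syt4 and Syt11 encode closely related proteins and differed: Syt11 had no peak at an end or inside, and the nearest to an end lay 26639 bp away, at an end of Rit1. Syt8, a short gene of 5547 bp, had none either, with the nearest peak 16485 bp from an end, at Lsp1.

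All 4 SNARE genes had an end peak, none of them shared with another gene. Stx1a, the plasma membrane syntaxin, had a score of 26.55 (chromosome 5, 135022716 to 135024709), and the vesicle SNARE genes Vamp1 and Vamp2 had 24.0 and 18.8. Snap25 had 17.0 in a peak of 3239 bp, wide beside the median of 2180 bp over all end peaks. The SNARE scores were thus all at or near the median of 17.08 or above it.

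The synapsins, which tether vesicles in reserve, ran from the highest score of the 36 genes to one of the lower ones. Syn2 had 27.05 (chromosome 6, 115133796 to 115136036), above 94.7% of protein-coding genes with an end peak, Syn3 had 20.4 and Syn1 had 11.6. Syn1 lies on the X chromosome, where the median highest end peak over protein-coding genes was 9.84, so its score was above the median of X-linked genes with a peak. Of the 3 genes on X, Syn1 had an end peak, and Syp and Nlgn3 had not, beside 40.2% of all protein-coding genes on X. On the autosomes 28 of 33 had one, beside 56.8% of all autosomal protein-coding genes.

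Syp, which encodes the vesicle membrane protein synaptophysin, was the single gene of its class without an end peak. The nearest peak lay 3415 bp from an end of Syp, with a score of 8.95, at an end of Prickle3. The Sv2 genes, which encode vesicle glycoproteins, all had one: Sv2c scored 16.1, Sv2b 13.8 and Sv2a 9.25. The Sv2c peak, 4005 bp wide (chromosome 13, 96130397 to 96134401), was the widest end peak of the 36 genes.

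The active zone genes all had a peak at the start, and Bsn had another beyond its other end. Pclo, which encodes the scaffold Piccolo, had a score of 26.5 (chromosome 5, 14513880 to 14516285). Bsn, which encodes its relative Bassoon, had a peak of 12.7 at its start (chromosome 9, 108189227 to 108191158) and a higher one of 21.5 beyond its other end. The latter lay 101 bp outside Bsn, at an end of Apeh. Bsn was the single gene of the 36 with a peak at both ends. Unc13a, which encodes a Munc13 priming factor, had 13.7 at its start (chromosome 8, 71669908 to 71672613).

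In the adhesion class the scores were low. Nrxn3, a neurexin, had an end peak of 9.25 (chromosome 12, 88721916 to 88723852), and Nlgn2, the neuroligin of inhibitory synapses, one of 10.6 that was also at an end of Tmem256. Nlgn1, the neuroligin of excitatory synapses, had no peak at an end and 1 inside. Nrxn2 and Nlgn3 had none at all, and the nearest peaks lay 276276 bp from an end of Nrxn2, at Arl2, and 23990 bp from an end of Nlgn3, at Med12. Including interior peaks, 30 of the 36 genes (83.3%) had a peak, against 61.1% of protein-coding genes, and Syt8, Syt9, Syt11, Syp, Nrxn2 and Nlgn3 had none.

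Few of the end peaks were shared with a neighbour. In 4 of the 29 genes (13.8%), namely Syt3, Syt5, Bsn and Nlgn2, an end peak was also at an end of another protein-coding gene, against 29.0% of all genes with an end peak. The genes were also long, with a median of 66.1 kb against 17.2 kb over all protein-coding genes. Of the 13 genes of 100 kb or more, 10 had an end peak, where 67.5% of all genes of that length did. Of the 23 shorter genes 19 had one, where 53.9% of all shorter genes did.

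The peaks lay at the starts. Transcription starts and strands were listed for 25 of the 36 genes, and not for Syt4, Syt5, Syt7, Syt12, Syt13, Syt17, Syn3, Vamp2, Snap25, Nrxn2 and Nlgn3. In 20 of the 25 genes a peak was at the 5′ end of the gene, where 53.1% of 17492 protein-coding genes had one. In 1 of the 25, Bsn, a peak was at the 3′ end, where 7.29% had one. Counting every listed start, in 21 of the 25 genes a peak reached within 1 kb of a start (55.3% of protein-coding genes), and the 4 without were Syt8, Syt9, Syt11 and Syp.

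Where a start had a peak, the peak nearly always covered it, as in protein-coding genes at large. The 25 genes had 38 listed starts, of which 26 had a peak within 1 kb (54.3% of all listed starts), and in 25 of the 26 (96.2%) the peak covered the start itself, against 96.3% of all starts with a peak. The exception was a second Syt1 start inside the gene, 842 bp beyond the edge of the peak. A peak was counted once for each start it reached: 3 starts for the Syt6 end peak, and 2 each for those of Syt1 and Sv2b. The peak midpoint lay downstream of the start for 18 of the 26 (69.2%), against 55.3% of all starts with a peak. Its median position was 73 bp downstream, against 34 bp over all starts. The median width of the peaks at these starts was 2225 bp, close to the 2222 bp over all starts, so their extent was that of peaks at starts in general.

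**Figure D3:**
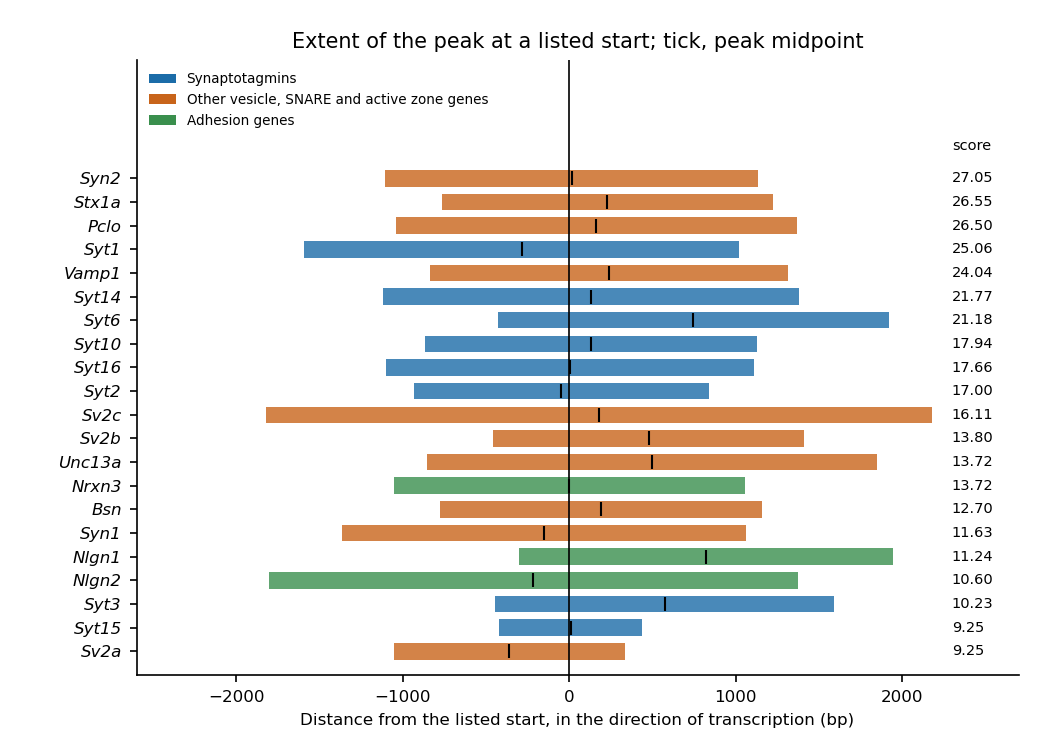
Extent of the peak at a listed start for the 21 genes with one, ordered by score (printed at the right); the horizontal axis is the distance from the start in bp, positive in the direction of transcription, colours give the class and a black tick the peak midpoint. For each gene the start with the highest-scoring peak is drawn; the Sv2c peak is the widest, and the Nlgn1 and Syt6 peaks lie mostly downstream of the start.

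Several genes carried peaks in their interior. An interior peak, one that overlaps the gene and is at neither end, was found in 10 of the 36 genes (27.8%), against 13.8% of protein-coding genes. Among the genes of 100 kb or more it was 7 of 13, where 42.8% of all genes of that length had one. Among the shorter genes it was 3 of 23, where 10.2% of all shorter genes had one. The 14 interior peaks had a median score of 10.4, from 5.37 to 20.6, beside 9.13 for the interior peaks of all protein-coding genes.

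Of these peaks 3 stood at an internal listed start, meaning one more than 5 kb from the outer 5′ end of the gene. In Syt2 the inner start, 62766 bp from the outer end, had a peak of 17.0 (chromosome 1, 134708367 to 134710138), above the 11.93 of the outer start. In Nrxn3 the innermost start, 1089782 bp from the outer end, had a peak of 13.7 (chromosome 12, 89811432 to 89813537) with its midpoint 1 bp from the start, above the 9.25 at the outer end. Long and short neurexins are known to come from separate promoters, and which of them this start makes is not in the table. In Nlgn1 the inner start, 178880 bp from the outer end, had a peak of 11.2 (chromosome 3, 26152043 to 26154288), whereas the outer start, whose sequence is shown above, had none.

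The other internal starts had no peak. The 5 genes with internal starts had 8 of them, of which 3 had a peak, where 41.1% of all internal starts did. Those without were 1 in Syn2, 2 in Sv2b and 2 in Nrxn3. The outer starts of Syn2 and Sv2b had peaks, so in these 2 genes the outer start alone was marked.

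**Figure D4:**
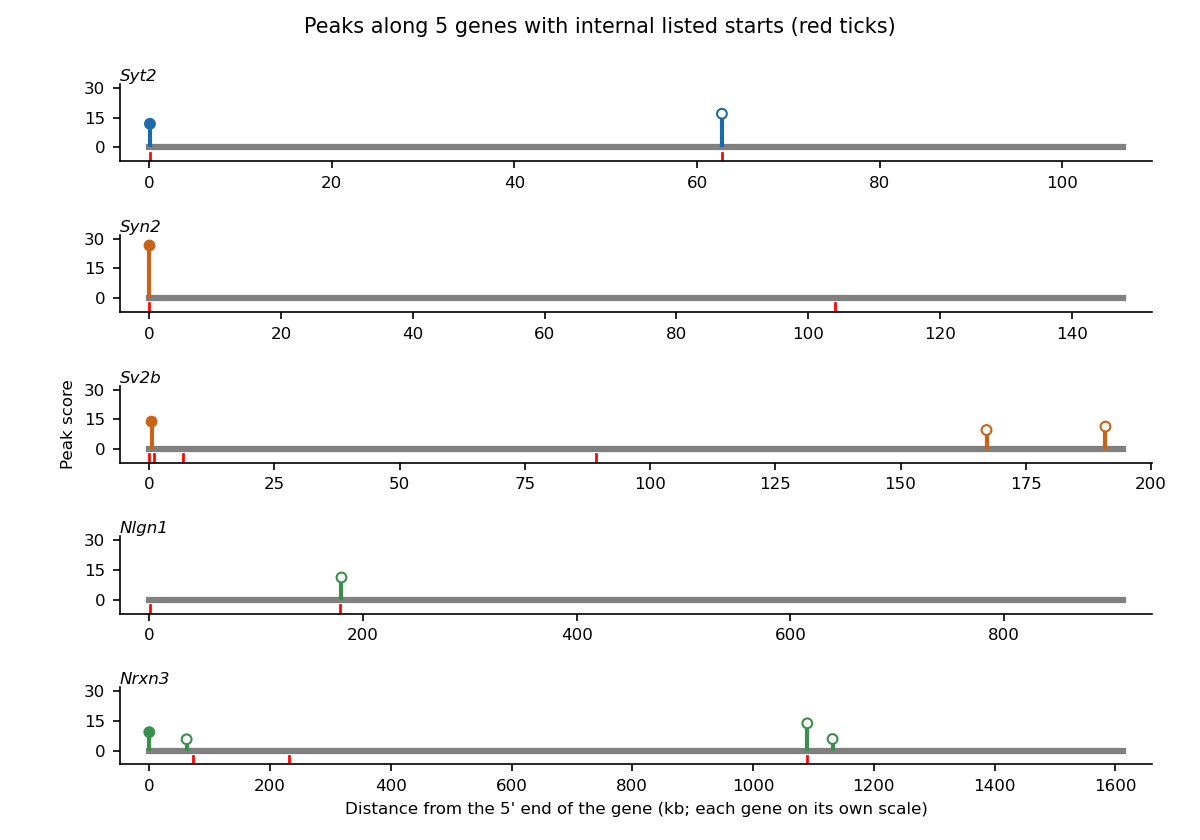
Peaks along the 5 genes with internal listed starts; the horizontal axis is the distance from the 5′ end of the gene in kb, each gene on its own scale, the height of a line is the peak score, filled points are peaks at a gene end, open points interior peaks, and red ticks the listed starts. Interior peaks stand at the inner start of Syt2, the inner start of Nlgn1 and the innermost start of Nrxn3, while the inner starts of Syn2 and Sv2b carry none.

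Starts were listed for 8 of the 10 genes with interior peaks, and 8 of their 11 interior peaks were at no listed start. At a listed start were 3 of these 11 (27.3%), beside 32.9% of the interior peaks of all genes with listed starts. The other 3 interior peaks, 2 in Syn3 and 1 in Syt17, are in genes without a listed start. The highest of these 8, 20.6, was in Unc13a (chromosome 8, 71628263 to 71630586), 4138 bp from the 3′ end, and was above the 13.7 of the Unc13a start. Syn3 held 2, and 1 of them, 13.1, was at an end of Timp3, a gene that lies inside Syn3. Sv2b held 2 (11.3 and 9.55), Nrxn3 another 2 (5.8 and 5.67), and Syt17 (11.3), Syt10 (6.26), Sv2c (6.56) and Pclo (5.37) 1 each. With the Unc13a peak left aside, the scores of all these peaks lay below the median of 17.08 for gene ends.

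CpG content went with the presence of a peak, in the synaptic genes as in all genes. The CpG ratio is the number of CpG dinucleotides in the 300 bases at a start (250 before and 50 after) over the number that its C and G content would give. All listed starts of protein-coding genes were split into tertiles by this ratio, at 0.316 and 0.753, and a peak was at 12.6%, 67.1% and 83.1% of the starts in the lowest, middle and highest tertile. For the synaptic genes it was at 0 of 7, 16 of 20 and 10 of 11. The 7 starts of the lowest tertile were the 3 of Syt8, the inner ones of Syn2 and Sv2b, and the first of Nrxn3. Starts of 1 gene can share sequence, so these counts are of starts and not of independent genes.

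The exceptions were starts without a peak at higher ratios. The 1 start of the highest tertile without a peak was that of Syt9, with a ratio of 1.04. Syp (0.696), Syt11 (0.666) and the outer Nlgn1 start (0.621) had no peak and ratios above 0.567, the median over all listed starts. The outer Syt1 start had a ratio of 0.332 under its peak of 25.1, and the inner Nlgn1 start 0.405 under its peak of 11.2. Both of these ratios lie low in the middle tertile, where most starts had a peak. No synaptic start of the lowest tertile had one. High scores were found at high and at middle ratios: Pclo (1.08) had 26.5 and Syt16 (1.06) had 17.7, while Stx1a (0.635) had 26.55.

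**Figure D5:**
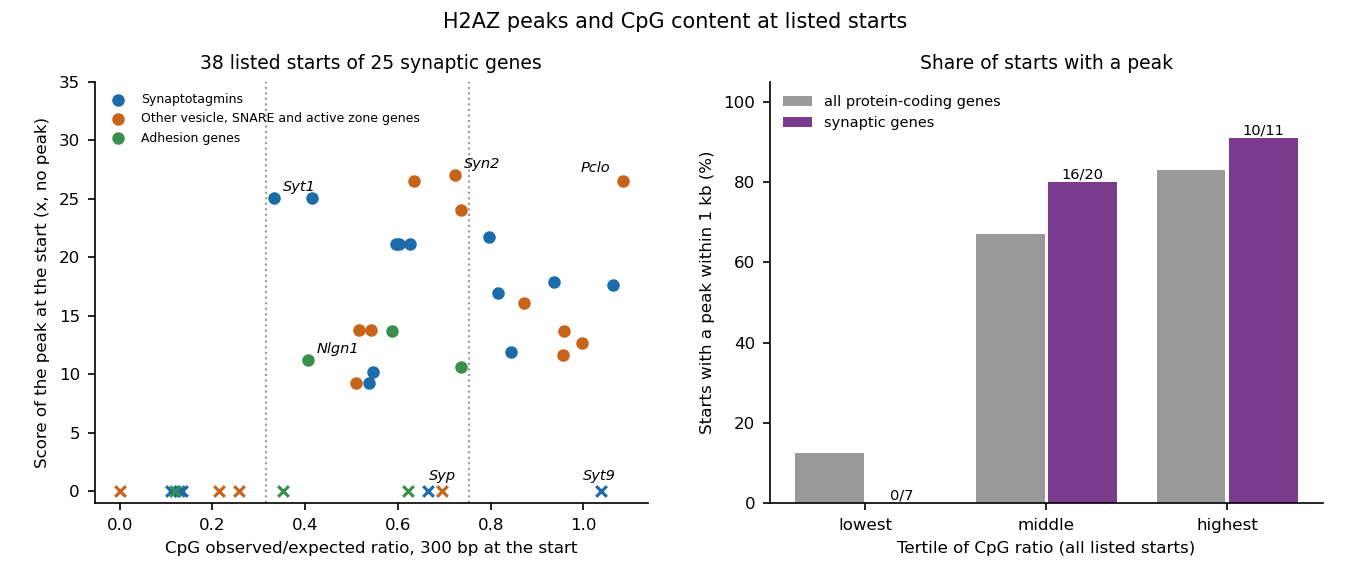
Left, score of the peak at each of 38 listed starts of 25 synaptic genes (vertical axis; an x at 0 is a start without a peak) against the CpG observed/expected ratio of the 300 bases at the start, with dotted lines at the limits of the tertiles. Right, percent of starts with a peak in each tertile for all protein-coding genes (grey) and the synaptic genes (purple, with counts); both rise from the lowest to the highest tertile.

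Short motifs were searched on both strands of the same 300 bases, with overlapping matches counted. The GC box GGGCGG was in 23 of the 38 starts (60.5%), beside 46.2% of all listed starts, and the TATA box TATAAA in 2 (5.26%, against 12.6%), both of Sv2b. The letters CCAAT were in 6 (15.8%, against 38.2%). The parts of the RE1 element, which the repressor REST binds to hold back neuronal genes outside neurons, were in 7 starts for CAGCACC (18.4%, against 7.24%) and in 4 for GGACAGC (10.5%, against 6.88%). The starts with CAGCACC were the second of Syt8, those of Syt10, Syt15, Syn1, Sv2c and Unc13a, and the inner start of Nlgn1. Those with GGACAGC were the 3 of Syt6, which lie in 1 peak, and that of Unc13a, the one start holding both. The E-box CANNTG was in 25 (65.8%, against 69.0%). A match describes letters in this window and not a site, and starts that lie close together share letters.

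Other genes of the same machinery were given by lists of 92 genes. Of these 70 had an end peak (76.1%, against 55.4% of protein-coding genes), with a median highest score of 17.6 beside 17.08. By role, it was 10 of 14 SNAREs and their regulators, 16 of 19 genes of the vesicle membrane and its cargo and 10 of 13 active zone genes. It was also 6 of 11 genes with C2 domains as in synaptotagmins, 4 of 7 endocytosis genes and 24 of 28 adhesion genes. The related adhesion genes thus had an end peak in 85.7%, beside 40.0% of the 5 neurexin and neuroligin genes, and the difference was not tested.

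Among the SNAREs and regulators, Snap47 (29.53, shared with Jmjd4) and Napb (24.2) scored highest. The complexin genes Cplx2 and Cplx3 had no end peak, though Cplx2 held an interior peak of 10.7, and Cplx1 had an end peak of 13.65. Among vesicle genes the leading ones were Syngr1 (25.1), Scamp5 and Sypl (24.5 each), and the GTPase gene Rab3a and the glutamate transporter gene Slc17a6 had none. Among active zone genes Ppfia1 (26.25), Rims3 (25.65) and Rims4 (23.3) led, and Rims1 and Rims2 had none, though Rims2 held an interior peak of 17.1. The relatives with C2 domains were led by Doc2b (19.7), Doc2a (18.6) and Sytl2 (13.4), and the extended synaptotagmin genes Esyt1 and Esyt2 had none. Among endocytosis genes Amph (27.4), Sh3gl2 (22.3) and the dynamin gene Dnm1 (21.9) led, and Bin1 and Snap91 had none. The adhesion list was led by Cadm4 (27.4) and the calsyntenin genes Clstn3 (23.6) and Clstn2 (21.2), and Adgrl2 and Clstn1 had none.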

How the data were processed

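One deposited peak list was used, with a chromosome, a start, an end, a name and a score per peak and no header; the scores are values assigned by the authors, and starts, deposited counted from 0, are printed counted from 1. Peak names carry the name MACS; the version, settings and control sample were not given in the sources used here. The submitters' processing notes name CASAVA 1.4, Bowtie2 2, FastQC and mm9. Positions were read as GRCm38: 54.3% of listed starts of protein-coding genes on GRCm38.p6 had a peak within 1 kb, and 6.79 and 6.64% after moving the peaks by 100 kb up or down. Peak numbers run to 32646 and 21592 are listed; 46 out of chromosome order were left out, leaving 21546. Genes came from the RefSeq table of GRCm38.p6, without 348 on other sequences, and starts from the RefSeq promoter table, which was not used for exons or introns. The samples were grouped by their antibody label. Exact intervals are Clopper-Pearson. No test was made, since there was 1 library per group. The 36 genes and all lists were chosen with earlier results of these data known. All 36 genes are named; of each related list the 3 highest-scoring genes and the first 2 in alphabetical order without an end peak are, except 1 gene that is not reported here. Overlaps were tested on simulated data (Python 3.11.15, numpy 2.4.6, pandas 2.3.3, scipy 1.17.1).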

Additional observations from a re-analysis of the deposited data

How the results depend on the processing

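Windows of 500 bp, 2 kb and 5 kb, the peak midpoint in place of any overlap, all listed peaks, and peaks at no end of another gene left the count of the 36 genes with an end peak between 26 and 30, and 21 remained with the higher-scoring peaks. Of 77 recomputed values 73 stayed within 1.5 times the reported one. With only peaks at or above the median score the adhesion genes with an end peak went from 2 to 0, the synaptic genes with an interior peak from 10 to 4, and all protein-coding genes with one from 3014 to 1325, since fewer peaks are counted. With only peaks at no end of another gene, the adhesion genes with an end peak went to 1, as Nlgn2 shares its peak. No paired analysis was possible because there was 1 library per group. Unknown depth limits what the absence of a listed peak can show.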

Other observations

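In 3 genes an interior peak scored higher than the peak at the outer end: Syt2 (17.0 against 11.93), Nrxn3 (13.7 against 9.25) and Unc13a (20.6 against 13.7). Those of Syt2 and Nrxn3 were at a listed internal start, and that of Unc13a was at none. In the related lists Unc13b, a paralogue of Unc13a, held an interior peak of 30.72 above its end peak of 17.6, which was also at an end of Fam214b. These genes were picked out after their values were seen.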
